A study of Bos taurus with 12 samples.

Results

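The genes described here encode the proteins that hold endometrial cells together and connect them: the gap junction protein connexin-43 (GJA1), the cadherins CDH1 and CDH2, the cadherin-binding protein beta-catenin (CTNNB1), the claudins CLDN2 and CLDN4, occludin (OCLN) and the tight junction scaffold TJP1. Members were all probe sets of the array that carry 1 of these 8 symbols, and no other, in the platform annotation. This gave 11 probe sets for 7 of the genes, out of 24016 probe sets tested. OCLN was named by no probe set and has no value. GJA1, CDH1, CLDN2 and TJP1 had a pair of probe sets each, called the brighter and the dimmer one here by their mean log2 signal over all pools.

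RNA came from endometrium of Simmental heifers and was hybridised as 12 pools, 1 per Affymetrix bovine array. There were 4 groups of 3 pools each, with receptive and then non-receptive endometrium of estrous cycle day 7, and likewise receptive and non-receptive endometrium of day 3. Receptivity refers to pregnancy success after transfer of in vivo produced embryos, and the tissue was taken before any transfer. The labels give neither the number of animals in a pool nor whether pools of a group came from separate animals, so p-values measure the spread between pools, which may be technical.

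Gap junctions are channels that let small molecules and ions pass between neighbouring cells. Cadherins bind their own kind on the next cell, with CDH1 (E-cadherin) typical of epithelium and CDH2 (N-cadherin) typical of mesenchymal and neural cells, and catenins tie their tails to actin. Claudins and occludin seal the space between epithelial cells near the lumen, and TJP1 anchors them inside the cell. In the uterus of several mammals, gap and tight junctions of the luminal epithelium are remodelled under progesterone before an embryo attaches.

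All values are log2 signals as deposited, so a difference of 1 is a doubling of signal. The median of an array was 6.64 to 6.76. Each array listed 257 to 450 probe sets at the floor of 0, where values have no order. The gap between the actin control probe sets at the 3' and 5' ends, which widens when RNA is short, was 0.82 to 1.25 in receptive and 0.02 to 0.63 in non-receptive pools on day 7, and 1.05 to 3.11 in receptive and 0.48 to 0.93 in non-receptive pools on day 3. The simple epithelium markers were abundant in every pool (EPCAM between 12.77 and 13.29). Pool 3 of non-receptive day 3 stood apart from the other day 3 pools in its stromal markers, with a summed log2 signal of 11.67 where the other 5 had 13.24 to 14.36, and in its endothelial markers, with 8.89 where the others had 9.86 to 10.83.

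The connexin-43 transcript was much less abundant on day 7 than on day 3. By the brighter GJA1 probe set, the log2 signal was 8.35, 8.39 and 6.40 in receptive pools on day 7 and 8.23, 7.13 and 8.22 in non-receptive pools on day 7, against 10.83, 9.89 and 10.46 in receptive pools on day 3 and 10.72, 10.67 and 10.25 in non-receptive pools on day 3. All 6 pools of day 7 lay below all 6 pools of day 3, a lack of overlap shared by 7.72% of all probe sets, and pool 3 of receptive day 7 was the lowest. The mean log2 signal was 7.79 ± 0.83 on day 7 and 10.47 ± 0.35 on day 3 (SD, n = 6 each), a difference of -2.68 (SE 0.37), or 6.42-fold lower signal on day 7. The difference was -2.68 in receptive and -2.69 in non-receptive endometrium. In order of mean level, receptive day 7 (7.71 ± 1.14) and non-receptive day 7 (7.86 ± 0.63) were neighbours within their spread, as were receptive day 3 (10.39 ± 0.47) and non-receptive day 3 (10.55 ± 0.26; SD, n = 3 each). GJA1 and CDH2 were chosen by their large decreases in this very comparison, with junction genes of related function set beside them, so the day values of all 11 probe sets are a description and carry no test. In bulk tissue, fewer cells of a type and less RNA per cell cannot be told apart.

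The dimmer GJA1 probe set did not share this pattern. Its log2 signal was 4.43, 4.51 and 5.08 in receptive and 5.08, 4.97 and 4.21 in non-receptive pools on day 7, against 5.02, 5.23 and 4.84 in receptive and 5.01, 5.02 and 4.66 in non-receptive pools on day 3. The days overlapped, and the mean difference was -0.25 (SE 0.18).

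CDH2 showed the widest day difference of the 11 probe sets. The log2 signal of its single probe set was 5.16, 5.93 and 3.51 in receptive and 2.80, 4.34 and 4.26 in non-receptive pools on day 7, against 7.80, 7.28 and 7.64 in receptive and 8.28, 7.12 and 7.33 in non-receptive pools on day 3. The days did not overlap, and day 7 pools were more scattered than day 3 pools. The mean log2 signal was 4.33 ± 1.12 on day 7 and 7.57 ± 0.43 on day 3 (SD, n = 6 each), a difference of -3.24 (SE 0.43), or 9.46-fold lower signal on day 7. All day 7 values lay below 6.64, the lowest array median. Their mean was near that of the brighter TJP1 probe set (4.48), called dim below, so the size of the fold is uncertain. Within receptivity groups the difference was -2.71 in receptive and -3.78 in non-receptive endometrium. By group mean, CDH2 was 4.87 ± 1.24 in receptive and 3.80 ± 0.87 in non-receptive endometrium on day 7, the lowest of the 4 groups. It was 7.57 ± 0.27 in receptive and 7.58 ± 0.62 in non-receptive endometrium on day 3 (SD, n = 3 each), and on either day the receptivity groups overlapped.

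**Figure D1:**
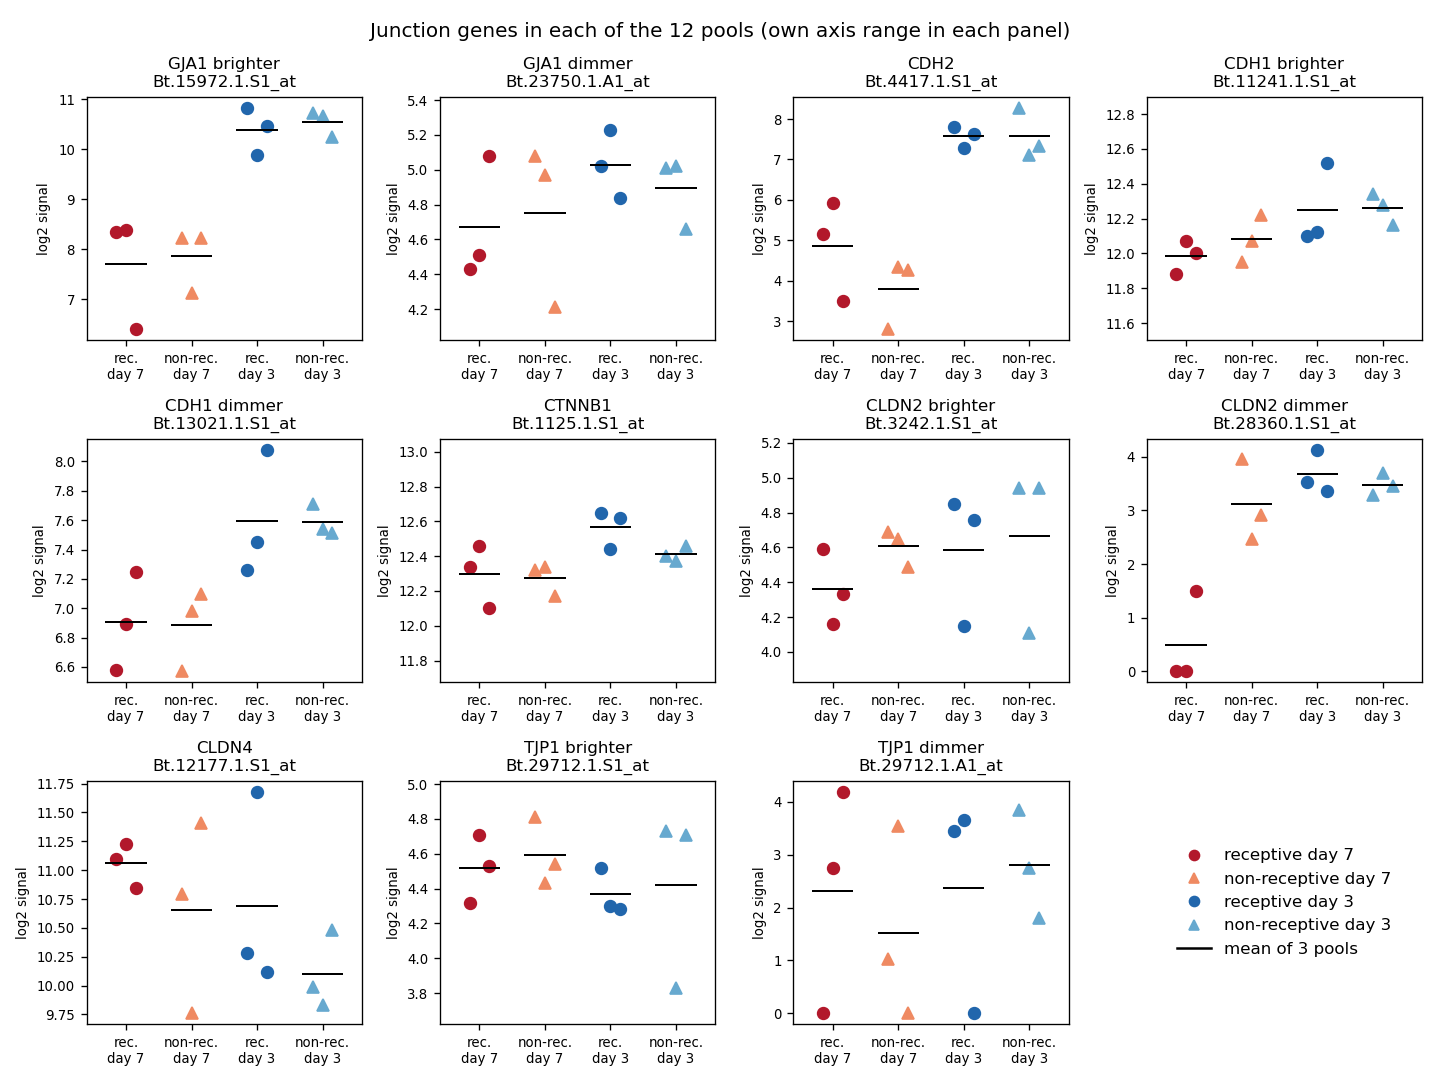
Log2 signal (vertical axis, own range in each panel) of the 11 junction probe sets in each pool, by receptivity and day, with a line at the mean of the 3 pools of a group. The 6 pools of day 7 lie below the 6 pools of day 3 for the brighter GJA1 probe set and CDH2, while CTNNB1, CLDN4 and TJP1 overlap between days.

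CDH1, the main cadherin of epithelial cells, differed far less between days. Its brighter probe set had a log2 signal of 11.88, 12.07 and 12.00 in receptive and 11.95, 12.07 and 12.22 in non-receptive pools on day 7, against 12.10, 12.12 and 12.52 in receptive and 12.34, 12.28 and 12.16 in non-receptive pools on day 3. The days overlapped and the mean difference was -0.22 (SE 0.10). Its dimmer probe set had a log2 signal of 6.58, 6.89 and 7.25 in receptive and 6.57, 6.98 and 7.10 in non-receptive pools on day 7, against 7.26, 7.45 and 8.08 in receptive and 7.71, 7.54 and 7.51 in non-receptive pools on day 3. Here the days did not overlap, but the highest pool of day 7 (7.25) and the lowest of day 3 (7.26) nearly met, and the mean difference was -0.70 (SE 0.17). Both probe sets were lower on day 7, by different amounts.

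CTNNB1, which links cadherins to the cytoskeleton and also carries the WNT signal to the nucleus, differed little between days. Its log2 signal was 12.34, 12.46 and 12.10 in receptive and 12.32, 12.34 and 12.17 in non-receptive pools on day 7, against 12.65, 12.44 and 12.62 in receptive and 12.40, 12.37 and 12.46 in non-receptive pools on day 3. The days overlapped, with a mean difference of -0.20 (SE 0.08).

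Among the claudins, CLDN4, a sealing claudin of tight epithelia, overlapped between days. Its log2 signal was 11.10, 11.23 and 10.85 in receptive and 10.79, 9.76 and 11.41 in non-receptive pools on day 7, against 10.28, 11.68 and 10.12 in receptive and 9.99, 9.83 and 10.48 in non-receptive pools on day 3. The mean day difference was 0.46 (SE 0.33), and the highest and the lowest pool of all 12 were pool 2 of receptive day 3 and pool 2 of non-receptive day 7.

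CLDN2, a claudin that forms pores for small cations, was measured by a pair of probe sets that did not move together. The brighter one had a log2 signal of 4.59, 4.16 and 4.33 in receptive and 4.69, 4.65 and 4.49 in non-receptive pools on day 7, against 4.85, 4.15 and 4.76 in receptive and 4.94, 4.11 and 4.94 in non-receptive pools on day 3, with a mean day difference of -0.14 (SE 0.18) and overlap. The dimmer one was listed at 0 in pools 1 and 2 and at 1.5 in pool 3 of receptive day 7, and had a log2 signal of 3.95, 2.47 and 2.92 in non-receptive pools on day 7, against 3.52, 4.13 and 3.37 in receptive and 3.28, 3.70 and 3.45 in non-receptive pools on day 3. By the dimmer probe set the 3 receptive pools of day 7 stood below the other 9. Its mean over the 12 pools was at percentile 5.8 of all probe sets, near the bottom of the measured range.

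TJP1, the scaffold beneath the tight junction strands, was dim by both of its probe sets. The brighter one lay between 4.32 and 4.81 on day 7 and between 3.83 and 4.73 on day 3, with overlap and a mean day difference of 0.16 (SE 0.17). The dimmer one was listed at 0 in 3 of the 12 pools and reached 4.19 in another, so that no direction can be read from it.

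Over all 11 probe sets, 4 had an adjusted p under 0.05 in the day comparison averaged over receptivity groups, all lower on day 7 (CDH2, the brighter probe set of GJA1 and the dimmer ones of CDH1 and CLDN2), beside 14.2% of all probe sets in either direction and 9.44% in the lower one. The members had been chosen with this comparison in view, so nothing is read from that count. The median difference over the 11 was -0.25, beside -0.05 over all probe sets.

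**Figure D2:**
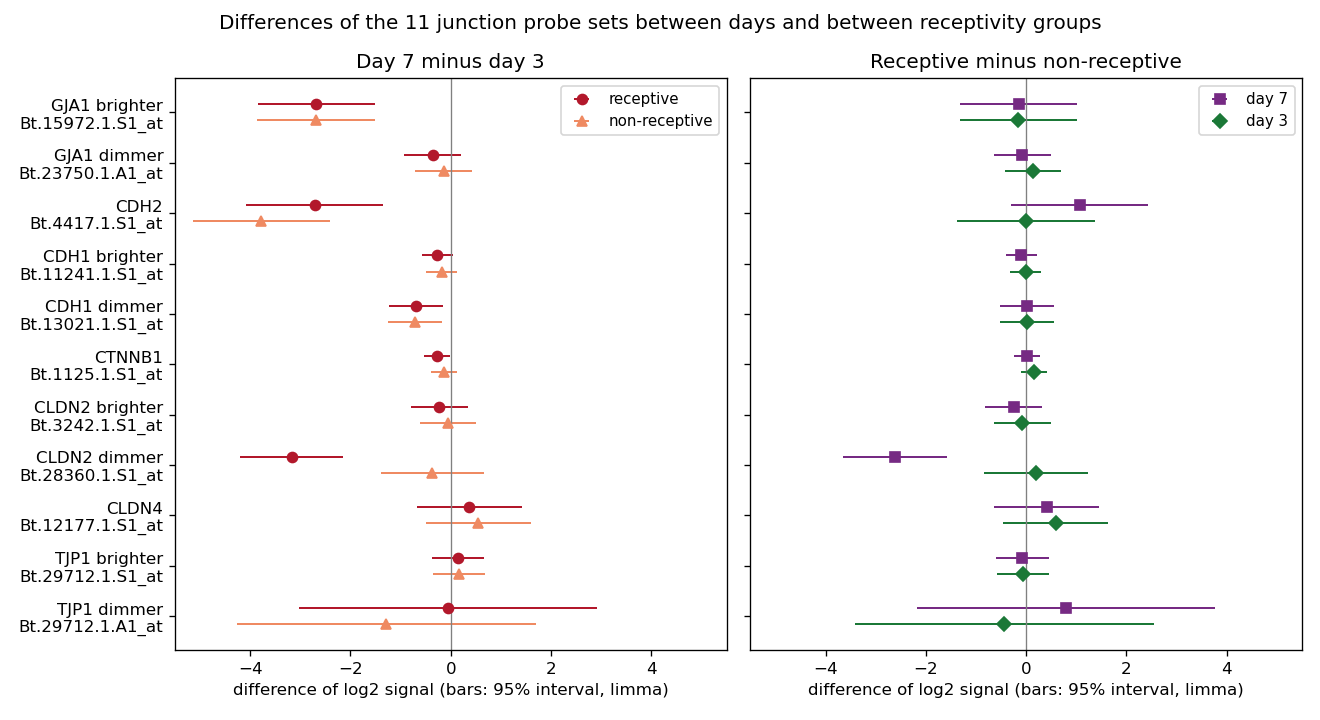
Difference of log2 signal (horizontal axis) for each of the 11 probe sets, day 7 minus day 3 on the left and receptive minus non-receptive on the right, with 95% intervals from limma. On the left the brighter GJA1 probe set and CDH2 lie far below 0 in both receptivity groups, and on the right that of the dimmer CLDN2 probe set on day 7 is the only one that leaves out 0.

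Whether junction transcripts differed with receptivity was tested with limma, since this comparison had no part in choosing the genes. None of the 11 probe sets passed an adjusted p of 0.05 on day 7 (background 0% of all probe sets), on day 3 (background 0.0125%) or averaged over both days (background 0.00416%). At an unadjusted p under 0.05, 1 of the 11 was past the threshold on day 7 (background 5.81%), 0 on day 3 (background 5.26%) and 1 over both days (background 7.38%), and in each case the 1 was the dimmer CLDN2 probe set. The receptive pools had the wider 3' to 5' actin gap on both days, without overlap. In a fit with the gap as a covariate 0 of the 11 passed. As 0 had passed without it, and gap and receptivity went together, that fit cannot tell them apart. The part of the gap in these values was not otherwise tested.

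Measured against the spread between these pools, which may be technical, the limits on a receptivity difference were narrow for some members and wide for others. Averaged over both days, receptive minus non-receptive was -0.06 for the brighter CDH1 probe set (95% interval -0.27 to 0.16) and 0.09 for CTNNB1 (-0.09 to 0.28). By the dimmer CDH1 probe set it was 0.02, with a wider interval (-0.36 to 0.40). For the brighter GJA1 probe set it was -0.15 (-0.98 to 0.68, limma adjusted p = 0.923). The interval was wider for CDH2, with a difference of 0.53 (-0.43 to 1.50, limma adjusted p = 0.755), and for CLDN4, with 0.50 (-0.24 to 1.24, limma adjusted p = 0.718). The CLDN4 difference was -0.0375 without the 3 pools of highest spike-in signal (pool 2 of every group but receptive day 7). None of these differences passed the test against the spread between pools.

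On day 7 alone, CDH2 averaged 4.87 in receptive and 3.80 in non-receptive pools, a difference of 1.07 (95% interval -0.30 to 2.43, limma adjusted p = 0.823) with overlapping pools. The dimmer CLDN2 probe set was the exception, with a mean log2 signal of 0.50 ± 0.87 in receptive and 3.11 ± 0.76 in non-receptive pools on day 7 (SD, n = 3 each). The difference was -2.61 (SE 0.46, 95% interval -3.64 to -1.58), with an unadjusted limma p of 0.000218 that did not pass after adjustment (0.524), and the pools did not overlap, as for 9.23% of all probe sets. The difference rests on values listed at 0 in 2 of the 3 receptive pools, and the brighter CLDN2 probe set differed by -0.25 (95% interval -0.82 to 0.32) on the same pools. Over both days, an exact permutation of receptivity within day (two-sided, 400 assignments) gave an unadjusted p = 0.075 for the dimmer CLDN2 probe set. This was the lowest of the 11, and the permutation p was 0.803 after adjustment over the 11 probe sets.

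The day difference itself was then compared between receptive and non-receptive endometrium by the interaction term. Of the 11 probe sets 0 passed (limma, background 0%), and 1 had an unadjusted p under 0.05 (background 3.39%), again the dimmer CLDN2 probe set, with -2.81 (SE 0.65, unadjusted p = 0.00159, adjusted p = 0.999). For the brighter GJA1 probe set the day difference in receptive minus that in non-receptive endometrium was 0.01 (95% interval -1.65 to 1.66). For CDH2 it was 1.07 (-0.86 to 3.00), an interval that spans 0 and a several-fold smaller decrease in receptive endometrium.

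Several transcripts used as cell type markers differed between days as well. In bulk tissue this does not separate cell numbers from RNA per cell. As background, 17.1% of all 9155 named genes passed between days, in either direction and each by its brightest probe set. Among the stromal fibroblast markers, 2 of 9 fell on day 7 (THY1 and COL3A1) and 0 rose, each call holding in 12 of 21 other settings. So few calls cannot be set apart from the background share. The summed log2 signal of the 9 stromal markers lay between 11.35 and 12.92 on day 7 and between 11.67 and 14.36 on day 3. With pool 3 of non-receptive day 3 left out, 4 of the 9 fell (COL3A1, COL1A2, DCN and LUM). That pool had stood out by its low stromal markers, so a larger fall without it was fixed by the choice. Of 7 endothelial markers 3 fell (EMCN, TEK and CDH5, TEK in only 9 of 20 other settings) and 0 rose, with sums of 8.38 to 9.06 on day 7 and 8.89 to 10.83 on day 3. All 4 measured squamous keratins rose by their brightest probe sets (KRT5, KRT14, KRT15 and KRT17), with sums of 8.98 to 11.46 on day 7 and 7.85 to 8.59 on day 3. The dimmer KRT5 probe set differed by -0.05 and did not pass (limma adjusted p = 0.888), while the dimmer KRT15 one rose too (2.46, limma adjusted p = 0.00369). Of 6 leukocyte markers CD68 rose and PTPRC fell by their brightest probe sets, with sums of 10.01 to 11.53 on day 7 and 10.09 to 10.76 on day 3. CD14 did not pass by its brighter probe set (0.93, limma adjusted p = 0.147) but rose by its dimmer one (0.89, limma adjusted p = 0.026). The dimmer PTPRC probe sets did not pass. None of 7 simple epithelium markers passed (limma, 2 at an unadjusted p under 0.05), with sums of 14.19 to 14.75 on day 7 and 14.22 to 14.52 on day 3, and none of 5 smooth muscle markers did (also 2), with sums of 7.41 to 8.28 on day 7 and 7.90 to 8.34 on day 3. No marker of these 6 lists was at 0 in any pool.

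In many tissues GJA1 and CDH2 are made by stromal and vascular cells as well as by others. In pool 3 of non-receptive day 3 the stromal sum of 11.67 and the endothelial sum of 8.89 lay within the day 7 ranges. Its GJA1 signal (brighter probe set) of 10.25 was above the 8.39 of the highest day 7 pool, and its CDH2 signal of 7.33 was above 5.93, the highest of day 7. With this pool left out, the day difference was -2.76 for the brighter GJA1 probe set and -3.30 for CDH2. CDH11, a cadherin typical of mesenchymal cells, was low in the same pool. The log2 signal of its brighter probe set was 4.89, 5.91 and 4.47 in receptive and 7.42, 4.59 and 7.01 in non-receptive pools on day 7, against 7.95, 8.19 and 8.21 in receptive and 8.17, 9.17 and 5.41 in non-receptive pools on day 3, where 5.41 is pool 3. Pool 3 of non-receptive day 3 was singled out after its values were seen, and GJA1 and CDH2 were chosen by their day decreases. How far stromal, endothelial, squamous or leukocyte content bears on GJA1 and CDH2 was not tested.

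**Figure D3:**
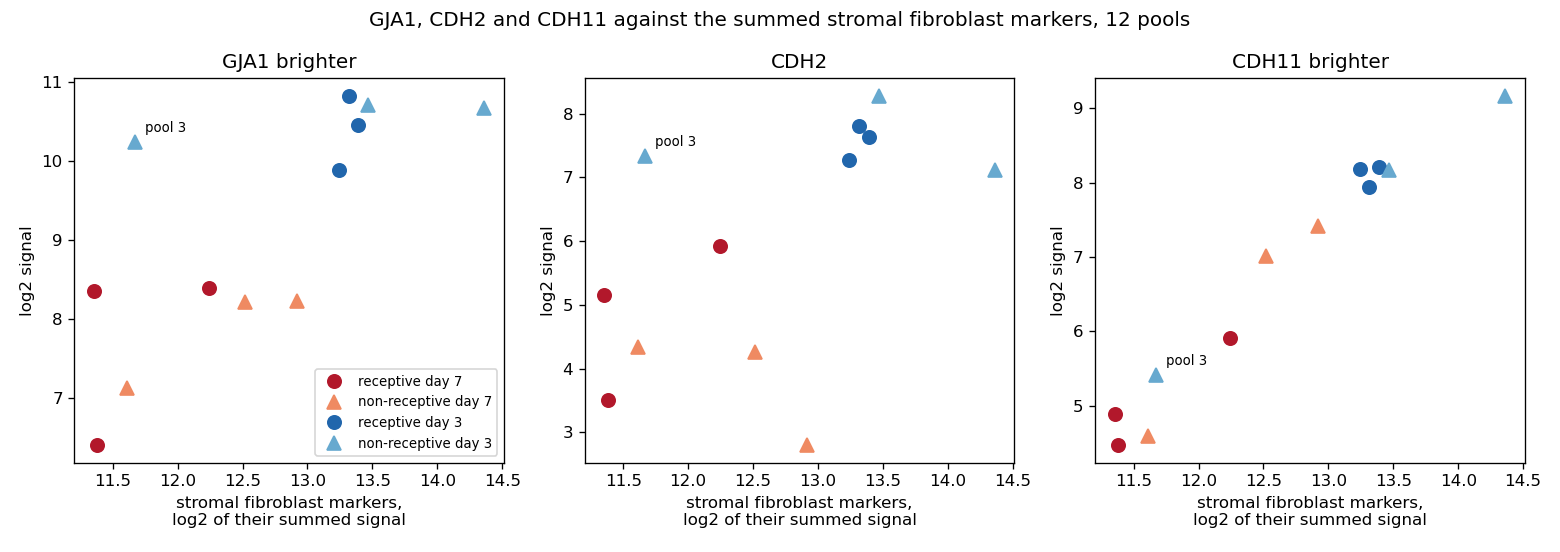
Log2 signal (vertical axis) of GJA1 and CDH11 (brighter probe sets) and CDH2 against the log2 of the summed signal of 9 stromal fibroblast markers (horizontal axis) in each of the 12 pools, with pool 3 of non-receptive day 3 named. That pool sits with day 3 for GJA1 (10.25) and CDH2 (7.33) and with day 7 for CDH11 (5.41), at a stromal sum of 11.67. The pool was picked after its values were seen, and the part of stromal content was not tested.

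Other genes of the same junctions were compared between days in the same fit. From 6 lists with 120 entries, 59 genes were measured, each by its brightest probe set. On day 7, 2 of them rose and 6 fell, 13.6% of the 59, beside 17.1% of all 9155 named genes counted in the same way, and their median difference was -0.06, beside -0.05 for all probe sets. The lists were drawn up by junction type with earlier results of these data known, and tests refer to limma's adjusted p over all probe sets.

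Among 7 connexins and pannexins, 1 rose and 0 fell. GJB2 (connexin-26), a connexin of many epithelia, had a log2 signal of 8.63, 7.37 and 7.42 in receptive and 7.59, 7.30 and 9.38 in non-receptive pools on day 7, against 6.45, 6.30 and 6.73 in receptive and 6.46, 6.56 and 6.73 in non-receptive pools on day 3. Every day 7 pool was above every day 3 pool, opposite in direction to GJA1, with a difference of 1.41 (SE 0.36, limma adjusted p = 0.0287), a call that held in 14 of 21 other settings. Its dimmer probe sets differed by 0.12 and -0.04, and neither passed. GJC1 (connexin-45) differed by -0.75, PANX1 by -0.42 and GJB5 by 0.17, and none of them passed.

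Of 7 further cadherins, CDH3 (P-cadherin) and CDH5 (VE-cadherin) fell and none rose. CDH3 had a log2 signal of 6.26, 6.57 and 6.51 in receptive and 6.38, 6.61 and 6.48 in non-receptive pools on day 7, against 6.64, 7.24 and 6.92 in receptive and 7.02, 7.37 and 6.86 in non-receptive pools on day 3, with no overlap and a difference of -0.54 (SE 0.13, limma adjusted p = 0.0227). CDH5, which marks endothelium and is 1 of the 3 endothelial markers that fell, differed by -0.79 (limma adjusted p = 0.0347), a call that held in 9 of 20 other settings. Its dimmer probe set differed by -0.68 and did not pass (limma adjusted p = 0.453). CDH11 did not pass by its brighter probe set (-2.14, limma adjusted p = 0.0621) and passed by its dimmer one (-2.56, limma adjusted p = 0.0312). With pool 3 of non-receptive day 3 left out, CDH11 passed by the brighter probe set too (-2.68, limma adjusted p = 0.0141), and so did the adhesion molecule JAM2 (-1.68, limma adjusted p = 0.0446). Both had their lowest day 3 value in that pool (5.41 and 3.4), so larger decreases without it follow from leaving it out. CDH16 differed by 0.74 and did not pass.

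Among 7 catenins, nectins and their adaptors, CTNNAL1, a relative of alpha-catenin, fell by 0.45 on the log2 scale (SE 0.10, limma adjusted p = 0.0161) and the rest did not pass, among them CTNNA1 at -0.12, LIMA1 at 0.16 and CTNNBIP1 at 0.33. The dimmer CTNNAL1 probe set differed by -0.70 and did not pass (limma adjusted p = 0.105). Among 12 further claudins only CLDN10, a paracellular ion channel, fell. Its log2 signal was 10.79, 11.52 and 9.96 in receptive and 10.15, 9.79 and 9.88 in non-receptive pools on day 7, against 11.15, 11.69 and 11.02 in receptive and 11.62, 11.29 and 11.82 in non-receptive pools on day 3. Only pool 2 of receptive day 7 overlapped day 3, and the difference was -1.08 (SE 0.24, limma adjusted p = 0.0189). CLDN7, which differed by -0.32, CLDN12, by -0.22, and CLDN19, by 0.24, did not pass.

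Of 17 other tight junction genes, TJP3, a scaffold of the same family as TJP1, rose and MPDZ and JAM3 fell, each by its brightest probe set. TJP3 had a log2 signal of 8.93, 8.87 and 9.15 in receptive and 8.75, 8.65 and 9.11 in non-receptive pools on day 7, against 8.17, 8.39 and 8.19 in receptive and 8.16, 8.07 and 8.51 in non-receptive pools on day 3, without overlap. The difference was 0.66 (SE 0.11, limma adjusted p = 0.00707), but its dimmer probe sets disagreed with each other. One differed by 0.60 and did not pass (limma adjusted p = 0.147), and the other passed in the opposite direction, at -0.34 (limma adjusted p = 0.0478), so that the direction of TJP3 depends on the probe set. MPDZ, a multi-PDZ scaffold, fell by 0.87 on the log2 scale (SE 0.16, limma adjusted p = 0.00952). The dimmer MPDZ probe sets differed by -0.26 and -0.31, and neither passed. JAM3, an adhesion molecule of endothelium among other cells, differed by -0.81 (limma adjusted p = 0.0389), a call that held in 7 of 20 other settings, and its dimmer probe set differed by 0.18 and did not pass. None of 9 desmosome genes passed (limma, 0 at an unadjusted p under 0.05), with DSC2 at 0.26, PKP1 at 0.42, PERP at 0.14 and DSC1 at 0.66. IGSF5, a further tight junction gene, differed by 0.28 and did not pass either.

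**Figure D4:**
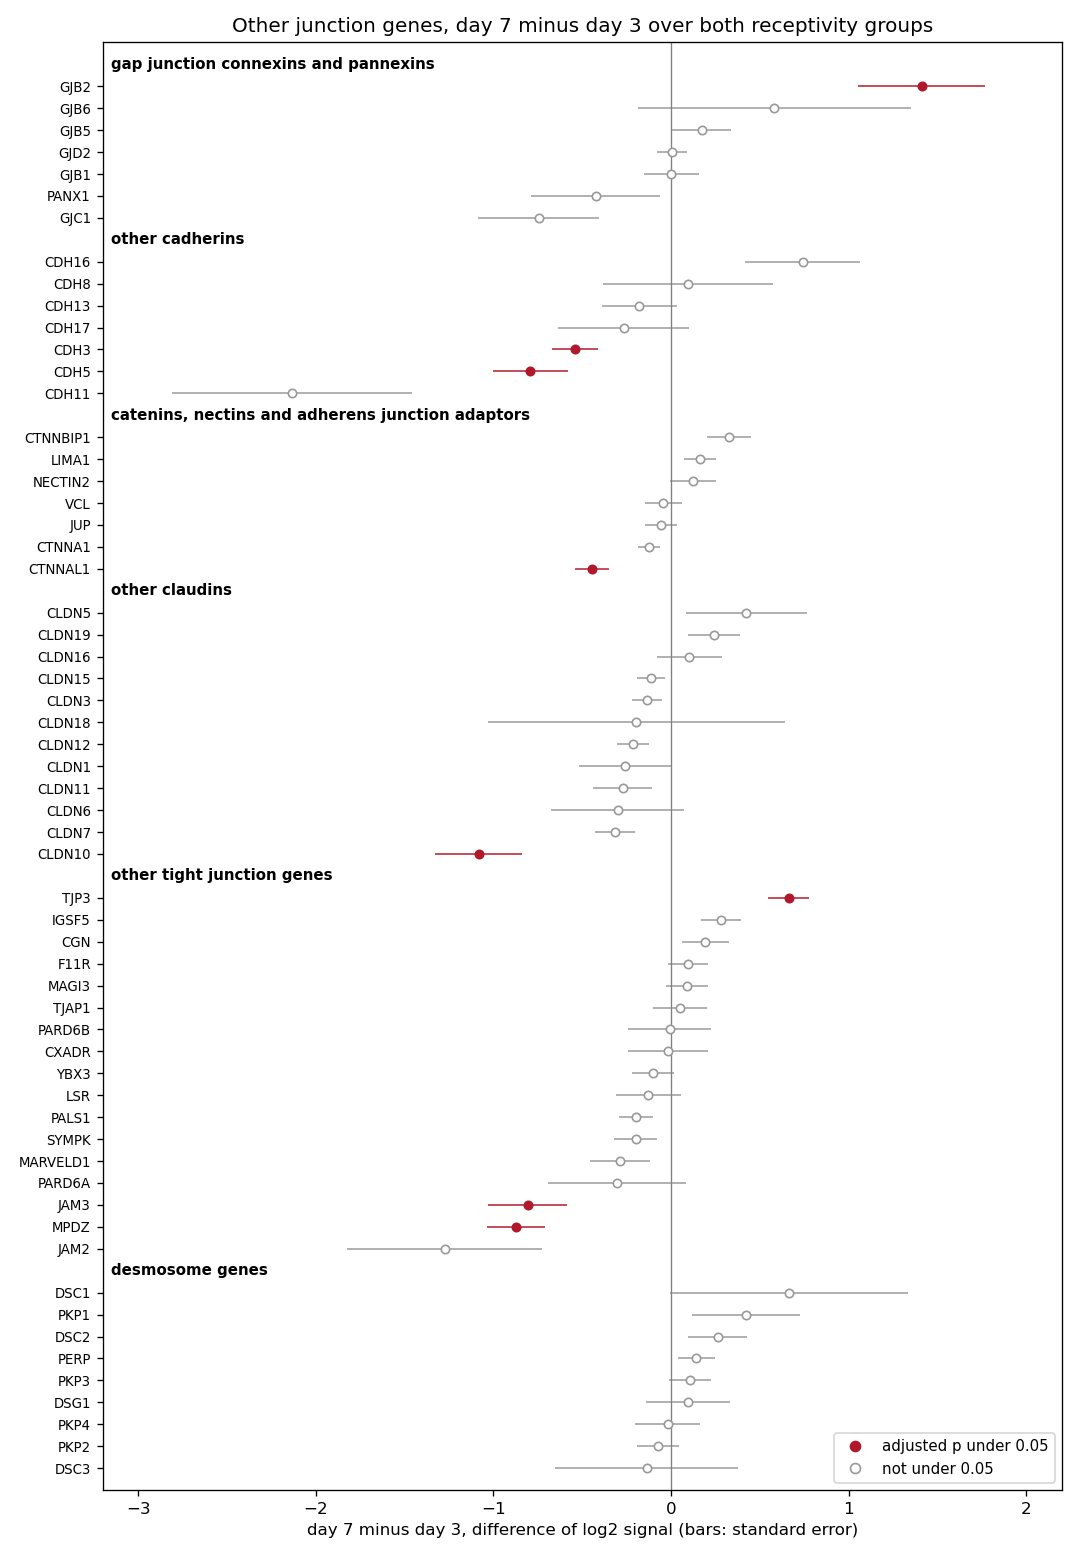
Day 7 minus day 3 difference of log2 signal (horizontal axis, bars for the standard error) for 59 junction genes in 6 lists, filled where limma's adjusted p is under 0.05. GJB2 and TJP3 (each by its brightest probe set) lie to the right and CDH3, CDH5, CTNNAL1, CLDN10, JAM3 and MPDZ to the left, with the remaining genes around 0 or with wide bars.

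Transcription factors that act on cadherin genes were looked at in the same way. Of 7 measured, TCF3 fell by 0.42 on the log2 scale (limma adjusted p = 0.0231), a call that held in 16 of 21 other settings. Its dimmer probe set differed by -0.26 and did not pass (limma adjusted p = 0.374). ZEB1, a repressor of CDH1, did not pass (-1.43, limma adjusted p = 0.1), and its log2 signal in pool 3 of non-receptive day 3 was 3.66, where the other day 3 pools had 5.64 to 6.70. With that pool left out, ZEB1 passed (-1.86, limma adjusted p = 0.0192), a larger decrease that follows from taking out its lowest day 3 value.

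None of the wider set of junction genes passed between receptivity groups. Averaged over both days, 0 of 59 passed (limma), beside 0% of the 9155 named genes, each by its brightest probe set. At an unadjusted p under 0.05 there were 2, beside 7.38% of all probe sets. These were CDH13 (T-cadherin), with a difference of -0.64 (adjusted p = 0.646), and the desmosomal plakophilin PKP1, with 0.87 (adjusted p = 0.662). On day 7, 0 of 59 passed, beside 0% of the named genes, and 5 had an unadjusted p under 0.05, beside 5.81% of all probe sets. On day 3, 0 passed, beside 0.0109% of the named genes, and 1 had an unadjusted p under 0.05, beside 5.26% of all probe sets. These counts of 0 are therefore not particular to junction genes.

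The genes whose log2 signal followed each member most closely over the 12 pools were searched among 7526 probe sets with signal above the median. For the brighter GJA1 probe set these were STMN1, CRYM and WDR77, with Pearson r of 0.965, 0.963 and 0.958, and with 0.820, 0.880 and 0.792 after the mean of each group was taken off. For CDH2 they were NUP85, NEDD9 and LTV1, with r of 0.982, 0.972 and 0.972, and 0.906, 0.797 and 0.930 after group means were taken off. CLDN4 went with ITGB5, SLC39A2 and ECE1, with r of 0.962, 0.932 and 0.931, and 0.954, 0.964 and 0.930 after group means were taken off. For CDH1 they were PPIG, ALG10 and CDC42EP3, with r between 0.854 and 0.894, and for CTNNB1 they were MDN1, GART and NUDCD3, with r between 0.908 and 0.926. The dim probe sets had weaker partners, TRAPPC11, INSR and MED20 for CLDN2 with r between 0.791 and 0.885, and FDPS, GAK and PAG5 for TJP1 with r between 0.763 and 0.790. These are the highest of many correlations over points that share arrays, and are a description only.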

How the data were processed

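The authors deposited 1 table of log2 signals for 24128 probe sets on 12 arrays. Tools named in the submitters' processing notes, without role or order, are PLIER, Affymetrix Expression Console and GCOS 1.1.1. How arrays were scaled to each other is not given in the sources. Values had 2 decimals, ranged between 0 and 14.06 and were used as deposited, with no filter. The number of arrays limits the precision. Sequences and coordinates were not used here.

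After removal of 112 control probe sets, limma 3.58.1 in R 4.3.3 (lmFit, then eBayes) was run on all 12 arrays with 4 group means, with two-sided tests and Benjamini-Hochberg adjustment over 24016 probe sets, and passing means an adjusted p under 0.05. A gene was named only from a probe set with exactly 1 symbol (13292 probe sets, 9155 genes). The model was tested on simulated data. Intervals are 95% intervals of the moderated test.

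The named genes were all members, up to 4 genes of each list with the smallest p between days and up to 2 between receptivity groups, the 3 genes most like each member, and probe sets or genes whose call turned with 1 pool (JAM2, for instance), which were picked after their values were seen. The members and gene lists were chosen with earlier results of these data known. A marker sum is the log2 of the summed linear signal. Pools were not paired by number in the main fit. Deviations of same-numbered pools from their group means correlated between -0.179 and 0.136 (18 pairs), and those of other pools between -0.149 and 0.155 (36 pairs). Such correlations cannot show whether same-numbered pools shared animals or a batch. The mean spike-in signal was highest in pool 2 of every group but receptive day 7 (6.97 to 7.13, against 5.92 to 6.51 in the other pools).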

Additional observations from a re-analysis of the deposited data

How the results depend on the processing

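The decrease of GJA1 (brighter probe set) and CDH2 on day 7 kept its direction under every alternative in which they were fitted, with differences of -2.85 to -2.31 for GJA1 and -3.56 to -2.90 for CDH2. The number of member probe sets that passed between days, 4 of 11, was 2 of 5 when only probe sets above the median signal were kept, 5 with array weights and 3 to 4 with 1 pool left out. The members were chosen with this comparison in view, so neither the kept direction nor these counts are support for a day difference. For receptivity and for the difference of the day changes 0 members passed under every alternative run. In the main fit at most 0.0125% of all probe sets passed any of these comparisons, so a count of 0 is not particular to the members. Among the 59 other junction genes, 2 rose and 6 fell; 3 fell with the actin gap as a covariate, 1 rose and 1 fell without the 3 pools of highest spike-in signal (pool 2 of every group but receptive day 7), and 1 to 3 rose and 4 to 8 fell with 1 pool left out. Only 1 rose without pool 1 or pool 2 of non-receptive day 3, any pool of receptive day 3, or pool 1 of receptive day 7, and GJB2 was the gene lost. Over all probe sets 3412 passed between days, 5611 with array weights, 1765 without the 3 pools, and between 1861 and 3617 with 1 pool left out, the fewest without pool 1 of non-receptive day 3. Of the calls 1144 were higher and 2268 lower, against 1430 and 1814 after quantile normalization and 1601 and 1562 after centring on the median.

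With pool number as a block 4 members passed between days, from which again nothing is read. In that fit 2 other junction genes rose and 6 fell, and 0 members passed for receptivity. Differences that did not pass changed sign in places. Averaged over days, receptive minus non-receptive was -0.12 for the dimmer GJA1, 0.026 for the brighter CDH1 and -0.32 for the dimmer TJP1 probe set with array weights, 0.000369 for that CDH1 probe set with the actin covariate, and -0.0375 for CLDN4 without the 3 pools. The day difference of the brighter CLDN2 probe set was 0.059 with the actin covariate. With 1 pool left out the receptivity difference ranged between -0.10 and 0.10 for the dimmer CDH1 probe set, -0.33 and 0.18 for the brighter and -0.11 and 0.11 for the dimmer GJA1 probe set, and -0.21 and 0.0117 for the brighter and -0.29 and 0.77 for the dimmer TJP1 probe set. The cause was not tested. The permutation of days was not run for members, whose day values carry no test. The dimmer CLDN2 and TJP1 probe sets, which reach the floor, have no value once such probe sets are left out.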
